A study of Mus musculus with 12 samples.

Results

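Polycomb and trithorax chromatin genes were followed across 6 MLL-AF9 leukaemias of the mouse. The 45 genes, like the further lists used below, were taken by name with earlier results of these data known. The 45 were divided by complex into the core of Polycomb repressive complex 2 (PRC2, 6 genes), PRC2 accessory factors (5), PRC1 (17), the PR-DUB deubiquitinase (2), the MLL complex (6), DOT1L with the super elongation complex (6) and histone demethylases (3). Of these, 43 had a probe set annotated to a single symbol, among 22180 genes of the array that did. Cbx6 and Kdm2b had probe sets shared with other symbols and received no value. The low-value filter kept 41 members among 19152 genes, a gene being tested if 3 or more arrays read above log2 4.61 (percentile 25 of all values). Bmi1 (mean 3.83) and Psip1 (mean 4.43) were above that value on 0 of 12 arrays.

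All 12 arrays carried total RNA of cells sorted on c-kit, the receptor for stem cell factor, which marks immature cells, and every leukaemia was induced by MLL-AF9. Leukaemias 81, 83 and 85 were labelled as Dnmt3b knock-in with overexpression of Dnmt3b, a de novo DNA methyltransferase, and leukaemias 73, 75 and 79 as wild type. Both fractions of each leukaemia were measured, which made 4 groups of 3. Strain, age, the promoter behind the Dnmt3b allele and whether each number is a separate mouse are not given in the labels, so p-values measure only the spread between these samples, which may be technical. The titles name bone marrow and the source field spleen, and the tissue is not settled here. Values below are log2 signals, those of labelled knock-in leukaemias in the order 81, 83, 85 and those of wild-type leukaemias in the order 73, 75, 79.

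Polycomb proteins keep developmental genes silent. PRC2 methylates histone H3 through Ezh2 or Ezh1, and PRC1 ubiquitinates histone H2A through Rnf2 or Ring1. Trithorax proteins oppose them: MLL complexes methylate another lysine of histone H3 at active promoters, and the fusion of MLL to AF9 (the product of Mllt3) brings DOT1L and the super elongation complex to genes such as the Hoxa cluster in leukaemia.

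The labels were set against marker genes first. Kit was higher in c-kit-positive cells by 1.40 ± 0.09 (SE, log2), and its fractions did not overlap. Dnmt3b had means of both fractions of 6.32, 6.36 and 6.48 in the labelled knock-in leukaemias, against 6.46, 6.39 and 6.22 in the wild-type leukaemias, a difference of 0.03 (adjusted p = 0.964), so the array did not show the overexpression that the label names and the group is called labelled knock-in throughout. Whether the probes read the introduced allele was not tested. One array stood apart: the c-kit-negative array of leukaemia 85 was the lowest of the 12 for 15 of the 41 tested members, and for 18.4% of all tested genes, while it was the highest for 23.4% of them. The list called primary granule held Mpo, Elane, Prtn3, Ctsg, Ms4a3, Nkg7, Prss57 and Clec12a. Clec12a encodes a surface receptor, so the list was not of granule proteins alone. Mean signals of these 8 genes were 9.57 to 10.6 on c-kit-positive arrays and 8.22 to 9.30 on c-kit-negative arrays. Those of 7 B cell, 8 T and NK cell, 4 erythroid and 7 stromal genes lay between 5.20 and 6.63 on every array.

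The question of the c-kit comparison was how these genes differ between the immature and the more mature cells of a leukaemia. Of the PRC2 core, 4 of 6 genes were higher in c-kit-positive cells, with Suz12, Rbbp7, Ezh2 and Rbbp4 between 1.47-fold and 1.80-fold above c-kit-negative cells. Higher there as well were Mtf2, Phf19, Pcgf5, Rnf2, Asxl1, Dpy30, Ash2l, Mllt10 and Aff1, by 1.21-fold (Asxl1) to 1.48-fold (Pcgf5), and the demethylase gene Kdm6b was lower. Over both labels, 13 of 41 members were higher and 1 was lower in c-kit-positive cells (limma, adjusted p under 0.05), while 5.84% of all tested genes were higher and 2.41% lower. Since the members were chosen with earlier results of these data known, such shares are no independent test of the set. With the leukaemia as a block, 18 members were higher and 2 lower, against 13.0% and 6.61% of all tested genes. In each of the 6 leukaemias alike, 16 members were higher (13.0% of all tested genes were) and 2 were lower (8.97%). The RNA is that of a sorted bulk, so fewer cells of a type and less RNA per cell cannot be told apart.

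By complex, the median c-kit difference was 0.63 in the PRC2 core, 0.12 among PRC2 accessory factors, 0.04 in PRC1, 0.31 in the MLL complex and 0.30 in the DOT1L group, beside -0.03 over all tested genes. The counts of members higher were 4 of 6, 2 of 5, 2 of 14, 2 of 5 and 2 of 6 in that order. With the leukaemia as a block they were 4, 2 (and 1 lower), 2, 4 and 4, so that the MLL complex and the DOT1L group had as many members higher as the PRC2 core. Of all tested genes 13.0% were higher in the blocked fit, close to the PRC1 share of 2 of 14, and 5.84% without the block. The limit of these counts is that they changed with the leukaemias included when the pairing of fractions was left out. In that fit 1 member passed without leukaemia 75, 3 without 73, 3 without 83 and 7 without 79. Leaving out a leukaemia also leaves fewer arrays, and the cause of the lower counts was not tested. With the leukaemia as a block, 15 to 19 members passed whichever leukaemia was left out.

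**Figure D1:**
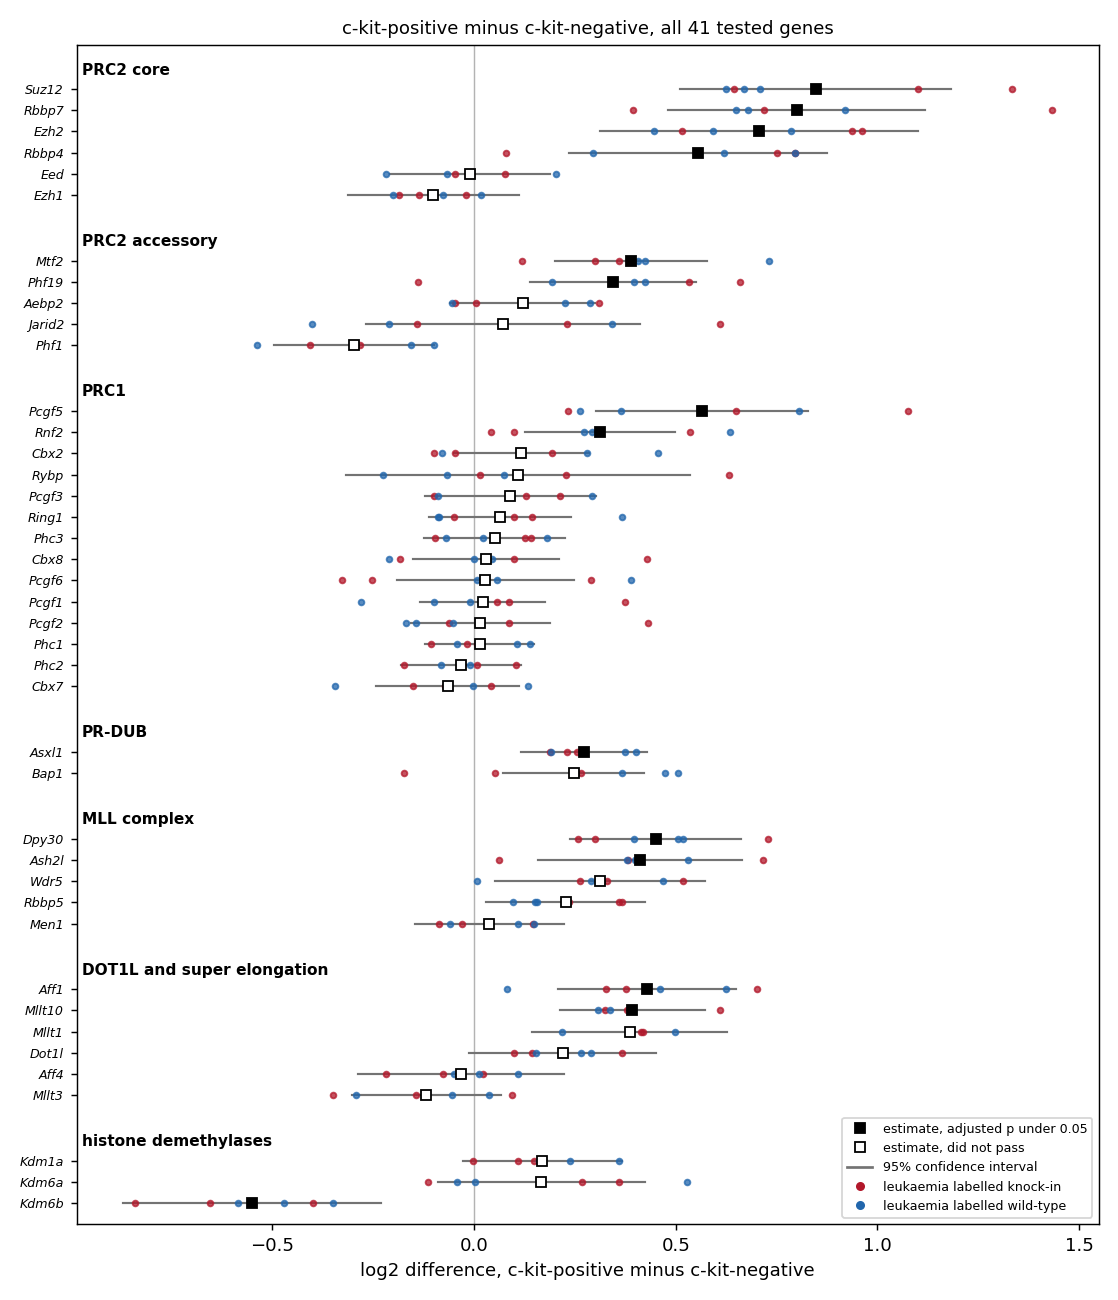
Log2 difference of c-kit-positive minus c-kit-negative cells for the 41 tested genes, grouped by complex. Squares are estimates (filled where the adjusted p is under 0.05), lines 95% confidence intervals, and dots the differences of single leukaemias (red labelled knock-in, blue wild type). The core genes Suz12, Rbbp7, Ezh2 and Rbbp4 lie right of 0 in all 6 leukaemias, Eed and Ezh1 lie around 0, and Kdm6b lies left of 0 in all 6.

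Suz12, the scaffold on which PRC2 assembles, differed most among the members. Suz12 read 8.41, 8.22 and 8.06 in the c-kit-positive cells of the labelled knock-in leukaemias and 8.22, 8.31 and 8.61 in those of the wild-type leukaemias, against 7.77, 7.12 and 6.72 (labelled knock-in) and 7.55, 7.60 and 7.99 (wild type) in the c-kit-negative cells. Every c-kit-positive value lay above every c-kit-negative value. The difference was 0.85 ± 0.16 (SE), a 1.80-fold higher signal (adjusted p = 0.00594), and it was 0.64, 1.10 and 1.33 under the knock-in label and 0.67, 0.71 and 0.62 under the wild-type label. Suz12 kept its call in all 20 alternatives run, the adjusted p reaching 0.0460 without leukaemia 75.

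Ezh2, the main histone methyltransferase of PRC2 in dividing cells, was higher as well. In c-kit-positive cells Ezh2 read 8.85, 8.61 and 8.11 under the knock-in label and 8.39, 8.51 and 8.69 under the wild-type label, against 8.34, 7.65 and 7.17 (knock-in label) and 7.79, 7.72 and 8.24 (wild-type label) in the c-kit-negative cells of the same leukaemias. Leukaemia 81 was the highest and leukaemia 85 the lowest of the labelled knock-in leukaemias in both fractions, and the fractions overlapped in that group only through those arrays. The difference was 0.71 ± 0.18 (SE), a 1.63-fold higher signal (adjusted p = 0.0309), with all 6 leukaemias higher. Ezh1, the methyltransferase that PRC2 carries in resting cells, read 6.93 to 7.34 in c-kit-positive cells and 7.06 to 7.41 in c-kit-negative cells. Its difference of -0.10 (95% interval -0.31 to 0.11) did not pass (adjusted p = 0.567). Within leukaemias, the c-kit difference of Ezh2 exceeded that of Ezh1 by 0.81 ± 0.28 (SD, n = 6), in all 6 leukaemias (exact sign-flip permutation test, two-sided p = 0.03125, the smallest that 6 leukaemias allow, and 0.0391 adjusted over 5 such pairs). Each of the 5 pairs set a member that passed against one that did not, so these p-values are no separate support for the calls.

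Rbbp7 and Rbbp4 encode histone-binding proteins that PRC2 shares with other chromatin complexes. Rbbp7 gave log2 values of 8.22, 8.21 and 8.16 (labelled knock-in) and 8.44, 8.58 and 8.69 (wild type) in c-kit-positive cells, against 7.82, 7.49 and 6.73 (labelled knock-in) and 7.79, 7.66 and 8.01 (wild type) in c-kit-negative cells. The c-kit-positive values of leukaemias 81, 83 and 85 lay within a narrow band, and the c-kit-negative value of leukaemia 85 was far below the others. The difference of Rbbp7 was 0.80 ± 0.15 (SE), a 1.74-fold higher signal (adjusted p = 0.00605). Rbbp4 read 9.16, 9.21 and 8.91 in the c-kit-positive cells of the labelled knock-in leukaemias and 9.20, 9.26 and 9.32 in those of the wild-type leukaemias, against 9.08, 8.46 and 8.12 (labelled knock-in) and 8.40, 8.64 and 9.02 (wild type) in the c-kit-negative cells. Leukaemia 81 hardly differed between its fractions, by 0.08. The difference of Rbbp4 was 0.56 ± 0.15 (SE), a 1.47-fold higher signal (adjusted p = 0.0358), on the probe set with the highest mean of all members (8.90). A second Rbbp4 probe set, with a mean of 3.53, differed by -0.09, and the call ended when both were averaged (0.24, adjusted p = 0.0729).

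Eed, the subunit that binds the histone mark PRC2 makes, read 6.66 to 7.10 in c-kit-positive cells and 6.71 to 6.97 in c-kit-negative cells. Its difference was -0.01 (95% interval -0.21 to 0.19, adjusted p = 0.957). The c-kit difference of Suz12 exceeded that of Eed by 0.86 ± 0.35 (SD, n = 6) in all 6 leukaemias (exact p = 0.03125, adjusted 0.0391). This pair too set a member that passed against one that did not, so a small p was likely beforehand. Without the pairing, 2 core genes passed without leukaemia 73, 1 without 75, 3 without 79 and 2 without 83. With the leukaemia as a block, 4 passed whichever was left out.

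**Figure D2:**
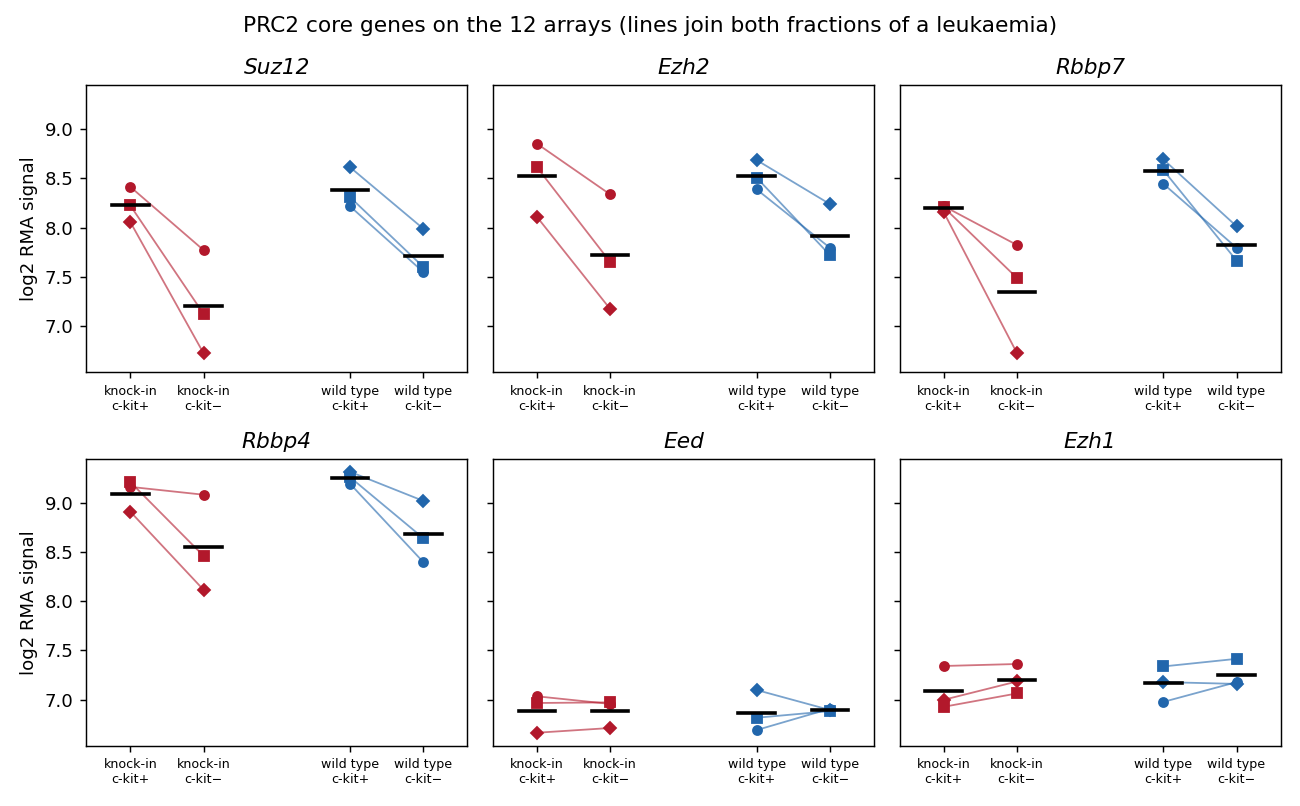
Log2 signal of the 6 PRC2 core genes on the 12 arrays; points are arrays, black bars group means, lines join both fractions of a leukaemia, and the groups run from labelled knock-in (red) to wild type (blue). Suz12, Ezh2 and Rbbp7 fall along every line from c-kit-positive to c-kit-negative cells, as does Rbbp4 with 1 nearly flat line, whereas Eed and Ezh1 stay between 6.66 and 7.41.

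Promoters of Suz12, Ezh2 and Rbbp7, the core genes with the largest differences, are shown with that of Phf19, which shares a motif with Suz12; these 4 were chosen after the values were seen. Each run is the 250 bases before the RefSeq gene start on GRCm38.p6, in the direction of the gene: chr11:79992856-79993105 (plus strand), chr6:47595031-47595280 (minus strand), chrX:162760122-162760371 (plus strand) and chr2:34913977-34914226 (minus strand). Capitals mark an E2F word (TTTCCCGC, TTTGGCGC, TTTCGCGC or TTTGCCGC) or a CCAAT box, on either strand.
Suz12: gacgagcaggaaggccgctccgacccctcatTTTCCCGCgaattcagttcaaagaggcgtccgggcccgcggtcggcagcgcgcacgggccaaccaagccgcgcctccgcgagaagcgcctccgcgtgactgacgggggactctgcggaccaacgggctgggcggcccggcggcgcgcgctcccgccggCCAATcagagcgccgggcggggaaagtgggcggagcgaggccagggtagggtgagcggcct
Ezh2: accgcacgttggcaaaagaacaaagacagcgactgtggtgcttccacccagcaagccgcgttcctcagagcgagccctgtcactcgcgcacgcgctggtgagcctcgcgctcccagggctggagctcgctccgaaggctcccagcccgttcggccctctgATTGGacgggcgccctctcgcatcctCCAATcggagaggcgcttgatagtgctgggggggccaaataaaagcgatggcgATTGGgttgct
Rbbp7: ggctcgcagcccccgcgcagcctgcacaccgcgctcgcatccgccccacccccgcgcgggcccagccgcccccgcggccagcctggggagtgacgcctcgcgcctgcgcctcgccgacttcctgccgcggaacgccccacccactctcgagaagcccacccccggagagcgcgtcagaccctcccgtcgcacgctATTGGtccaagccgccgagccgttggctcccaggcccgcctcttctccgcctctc
Phf19: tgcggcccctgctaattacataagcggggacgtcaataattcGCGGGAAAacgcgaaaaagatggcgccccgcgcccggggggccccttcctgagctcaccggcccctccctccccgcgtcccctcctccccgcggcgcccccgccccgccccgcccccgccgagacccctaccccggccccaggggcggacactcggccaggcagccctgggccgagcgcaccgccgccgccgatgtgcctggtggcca

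The E2F word began 219 bases before the start of Suz12 and, on the other strand, 208 bases before that of Phf19. E2F factors are known for driving genes of the cell cycle. Among the 39 members with a RefSeq promoter, Suz12 and Phf19 held such a word, as did 2.16% of 27025 promoters of the same length. CCAAT boxes stood in 18 of the 39 members, in 8 of the 12 higher members with a promoter and in 37.5% of all promoters. A match describes these letters only, and a window without one says nothing of a factor.

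Among the PRC2 accessory factors, Mtf2 and Phf19 were higher in c-kit-positive cells. Both are Polycomb-like proteins that help to bring PRC2 to CpG islands. In c-kit-positive cells Mtf2 read 6.82, 6.67 and 6.57 under the knock-in label and 7.31, 7.04 and 7.29 under the wild-type label, against 6.46, 6.55 and 6.27 (knock-in label) and 6.58, 6.62 and 6.88 (wild-type label) in the c-kit-negative cells of the same leukaemias. In each label the c-kit-positive values lay above the c-kit-negative ones, and the wild-type c-kit-positive values were the highest of all. The difference was 0.39 ± 0.09 (SE), a 1.31-fold higher signal (adjusted p = 0.0159). Phf19 gave log2 values of 5.74, 6.03 and 6.05 (labelled knock-in) and 6.19, 6.02 and 5.99 (wild type) in c-kit-positive cells, against 5.88, 5.50 and 5.39 (labelled knock-in) and 5.77, 5.63 and 5.80 (wild type) in c-kit-negative cells. Leukaemia 81 went the other way, by -0.14, and the other 5 were higher in c-kit-positive cells. The difference of Phf19 was 0.34 ± 0.10 (SE), a 1.27-fold higher signal (adjusted p = 0.0422), a call that ended under 10 of 20 alternatives.

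Phf1, the third Polycomb-like gene, had a negative difference. It read 5.79 to 6.35 in c-kit-positive cells and 6.33 to 6.65 in c-kit-negative cells, lower in all 6 leukaemias. The difference of -0.30 ± 0.09 (SE) passed with the leukaemia as a block and not without it (adjusted p = 0.0147 with and 0.0665 without it); Phf1 is singled out after its values were seen. Jarid2 and Aebp2, cofactors of another form of PRC2, differed by 0.07 (95% interval -0.27 to 0.41) and 0.12 (-0.06 to 0.30), and neither passed. Jarid2 read 8.35, 8.02 and 7.91 in the c-kit-positive cells of the labelled knock-in leukaemias and 7.92, 8.35 and 8.39 in those of the wild-type leukaemias, against 8.12, 8.17 and 7.30 (labelled knock-in) and 8.32, 8.56 and 8.04 (wild type) in the c-kit-negative cells. The fractions of Jarid2 overlapped, with 3 leukaemias in each direction. Without the block, 0 accessory genes passed without leukaemia 73, 75 or 83 and 1 without 79 or 85.

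In PRC1, 2 of 14 tested members were higher in c-kit-positive cells. Pcgf5, a RING-finger partner that defines a variant PRC1, was the first. Pcgf5 read 7.67, 6.93 and 7.14 in the c-kit-positive cells of the labelled knock-in leukaemias and 7.12, 6.99 and 7.15 in those of the wild-type leukaemias, against 6.59, 6.69 and 6.49 (labelled knock-in) and 6.31, 6.73 and 6.78 (wild type) in the c-kit-negative cells. Leukaemia 81 held both the highest value and the widest difference, 1.08, and in each label the fractions did not overlap. The difference of Pcgf5 was 0.57 ± 0.12 (SE), a 1.48-fold higher signal (adjusted p = 0.0135). Its paralogue Pcgf3 differed by 0.09 (adjusted p = 0.614), and the difference of Pcgf5 exceeded that of Pcgf3 by 0.48 ± 0.21 (SD) in all 6 leukaemias (exact p = 0.03125, adjusted 0.0391). Since Pcgf5 passed and Pcgf3 did not, that p-value is no separate support for the call.

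Rnf2, the main ubiquitin ligase of PRC1, was the second. In c-kit-positive cells Rnf2 read 6.98, 6.82 and 7.11 under the knock-in label and 7.43, 7.38 and 7.43 under the wild-type label, against 6.88, 6.78 and 6.57 (knock-in label) and 6.79, 7.11 and 7.14 (wild-type label) in the c-kit-negative cells of the same leukaemias. The wild-type c-kit-positive arrays lay above all others within a band of 7.38 to 7.43. The difference was 0.31 ± 0.09 (SE), a 1.24-fold higher signal (adjusted p = 0.0418), with all 6 leukaemias higher by 0.04 to 0.64, and its call ended under 10 of 20 alternatives. Ring1, its paralogue, differed by 0.06 (95% interval -0.11 to 0.24). The excess of Rnf2 over Ring1, 0.25 ± 0.31 (SD), was positive in 4 of 6 leukaemias and did not pass (exact p = 0.1875). Neither PRC1 gene passed without leukaemia 73 or 75 in the fit without the block.

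The other 12 tested PRC1 genes differed by -0.07 (Cbx7) to 0.12 (Cbx2), and none passed with or without the block. Among the readers of the histone mark made by PRC2, Cbx2, Cbx7 and Cbx8 had means of 6.98, 6.01 and 5.38. Phc1 gave log2 values of 6.05, 6.13 and 6.12 (labelled knock-in) and 5.82, 5.91 and 5.91 (wild type) in c-kit-positive cells, against 6.06, 6.12 and 6.23 (labelled knock-in) and 5.86, 5.80 and 5.77 (wild type) in c-kit-negative cells. The fractions of Phc1 overlapped within a narrow band. Phc1, Phc2 and Phc3, which polymerise PRC1, differed by 0.01, -0.03 and 0.05. The 95% intervals of these 6 genes kept within -0.24 and 0.29. Among RING-finger partners and subunits of variant PRC1, Pcgf1, Pcgf2, Pcgf6 and Rybp differed by 0.02, 0.02, 0.03 and 0.11. Bmi1, the RING-finger partner of canonical PRC1 in blood stem cells, had the lowest mean of the members and read 3.79 to 3.94 in c-kit-positive cells and 3.38 to 3.96 in c-kit-negative cells. It was left out by the filter, and in the limma fit without a filter it differed by 0.11 (95% interval -0.09 to 0.30, adjusted p = 0.524) and did not pass. Whether its probe set responds to its RNA was not tested, so these values do not show that Bmi1 RNA is low or unchanged.

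PR-DUB removes the ubiquitin that PRC1 places. Asxl1 gave log2 values of 7.09, 6.97 and 6.98 (labelled knock-in) and 7.12, 7.17 and 7.21 (wild type) in c-kit-positive cells, against 6.91, 6.72 and 6.75 (labelled knock-in) and 6.75, 6.77 and 7.02 (wild type) in c-kit-negative cells. Asxl1, its regulatory subunit, was higher in c-kit-positive cells by 0.27 ± 0.07 (SE), a 1.21-fold higher signal (adjusted p = 0.0342), in all 6 leukaemias, although its call ended under 6 of 20 alternatives: without leukaemia 73, 75, 83 or 85, without the c-kit-negative array of 85 alone and in the trended robust fit. Bap1 read 6.88, 7.08 and 6.82 in the c-kit-positive cells of the labelled knock-in leukaemias and 7.13, 7.29 and 7.28 in those of the wild-type leukaemias, against 7.05, 6.81 and 6.77 (labelled knock-in) and 6.66, 6.92 and 6.77 (wild type) in the c-kit-negative cells. Bap1, the catalytic subunit, differed by 0.25 ± 0.08 (adjusted p = 0.0813), and passed with the leukaemia as a block (adjusted p = 0.0319). The wild-type fractions of Bap1 did not overlap, while those of the labelled knock-in leukaemias did.

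The MLL complex shares with all MLL and SET1 enzymes a core of Wdr5, Rbbp5, Ash2l and Dpy30. In c-kit-positive cells Dpy30 read 6.16, 6.21 and 5.78 under the knock-in label and 6.08, 6.24 and 6.26 under the wild-type label, against 5.86, 5.48 and 5.52 (knock-in label) and 5.57, 5.84 and 5.74 (wild-type label) in the c-kit-negative cells of the same leukaemias. Dpy30, which stimulates the methyltransferase, was higher in c-kit-positive cells by 0.45 ± 0.10 (SE), a 1.37-fold higher signal (adjusted p = 0.0144). Ash2l gave log2 values of 7.15, 7.28 and 7.18 (labelled knock-in) and 7.26, 7.20 and 7.67 (wild type) in c-kit-positive cells, against 7.09, 6.90 and 6.46 (labelled knock-in) and 6.86, 6.82 and 7.14 (wild type) in c-kit-negative cells. Ash2l, which completes the active enzyme with Rbbp5, was higher by 0.41 ± 0.12 (SE), a 1.33-fold higher signal (adjusted p = 0.0467). Both were higher in 6 of 6 leukaemias, Ash2l by only 0.06 in leukaemia 81. In the fit without the block, neither passed without leukaemia 73, 75, 79 or 83, and over all 20 alternatives the call of Ash2l ended under 9 and that of Dpy30 under 4.

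Wdr5 read 7.21, 7.32 and 6.98 in the c-kit-positive cells of the labelled knock-in leukaemias and 7.09, 7.43 and 7.71 in those of the wild-type leukaemias, against 6.88, 7.06 and 6.47 (labelled knock-in) and 7.09, 7.14 and 7.24 (wild type) in the c-kit-negative cells. The c-kit-negative array of leukaemia 85 was again the lowest. Wdr5, which docks the enzyme, and Rbbp5 had positive differences in all 6 leukaemias too, 0.31 and 0.23. That of Wdr5 was only 0.008 in leukaemia 73. Both genes passed in limma with the leukaemia as a block (adjusted p = 0.0130 and 0.0236) and not without it (0.137 and 0.153). Men1 encodes menin, the adaptor that holds MLL on chromatin and on which MLL fusions rely. Men1 gave log2 values of 7.42, 7.42 and 7.24 (labelled knock-in) and 7.17, 7.35 and 7.20 (wild type) in c-kit-positive cells, against 7.50, 7.45 and 7.09 (labelled knock-in) and 7.23, 7.24 and 7.05 (wild type) in c-kit-negative cells. The fractions of Men1 overlapped under both labels, with a difference of 0.04 (95% interval -0.15 to 0.22). Psip1, which links menin to chromatin, was left out by the filter, and in the limma fit without a filter it differed by 0.09 (95% interval -0.06 to 0.23, adjusted p = 0.477) and did not pass. As for Bmi1, whether its probe set responds to its RNA was not tested.

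In the DOT1L group, Mllt10 and Aff1 were higher in c-kit-positive cells. Mllt10 read 8.19, 8.01 and 8.07 in the c-kit-positive cells of the labelled knock-in leukaemias and 8.10, 8.33 and 8.32 in those of the wild-type leukaemias, against 7.81, 7.68 and 7.45 (labelled knock-in) and 7.76, 8.02 and 7.93 (wild type) in the c-kit-negative cells. Mllt10, or AF10, the cofactor of DOT1L, was higher by 0.39 ± 0.08 (SE), a 1.31-fold higher signal (adjusted p = 0.0126), and its differences spanned 0.31 to 0.61 over the leukaemias. In c-kit-positive cells Aff1 read 8.56, 8.44 and 8.35 under the knock-in label and 8.55, 8.49 and 8.41 under the wild-type label, against 8.18, 8.11 and 7.65 (knock-in label) and 7.92, 8.03 and 8.33 (wild-type label) in the c-kit-negative cells of the same leukaemias. Aff1, or AF4, a scaffold of the super elongation complex, was higher by 0.43 ± 0.10 (SE), a 1.35-fold higher signal (adjusted p = 0.0227). Leukaemia 79 had the narrowest difference of Aff1, 0.08. Without the block, 0 members of the group passed without leukaemia 75 or 83 and 1 without 73 or 79.

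Mllt1, or ENL, a reader of acetylated histones, read 8.39 to 8.92 in c-kit-positive cells and 7.97 to 8.54 in c-kit-negative cells. It differed by 0.39 and Dot1l, the methyltransferase itself, by 0.22, each positive in all 6 leukaemias. With the leukaemia as a block both passed (adjusted p = 0.00158 and 0.0377), and without it neither did (0.0510 and 0.239). Aff4 differed by -0.03 and Mllt3, the gene of the fusion partner AF9, by -0.12, and neither passed. In c-kit-positive cells Mllt3 read 5.71, 5.23 and 5.44 under the knock-in label and 5.39, 5.43 and 5.37 under the wild-type label, against 5.62, 5.58 and 5.59 (knock-in label) and 5.44, 5.39 and 5.67 (wild-type label) in the c-kit-negative cells of the same leukaemias. Its values stayed between 5.23 and 5.71, and whether its probes read the fusion transcript was not tested.

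Kdm6b, which removes the mark that PRC2 makes and is induced by inflammatory signals in myeloid cells, was the member lower in c-kit-positive cells. Kdm6b gave log2 values of 7.78, 7.89 and 7.42 (labelled knock-in) and 7.71, 7.43 and 7.78 (wild type) in c-kit-positive cells, against 8.44, 8.73 and 7.82 (labelled knock-in) and 8.06, 7.90 and 8.37 (wild type) in c-kit-negative cells. The fractions did not overlap under the wild-type label, and under the knock-in label they overlapped through the low values of leukaemia 85. The difference was -0.55 ± 0.15 (SE), a 1.46-fold lower signal (adjusted p = 0.0380), and the call ended without leukaemia 73, 75, 79, 81 or 83 and when arrays were centred on their medians. A second Kdm6b probe set, with a mean of 5.99, was lower in all 6 leukaemias as well, by -0.12. Kdm6a read 7.26, 7.58 and 7.56 in the c-kit-positive cells of the labelled knock-in leukaemias and 7.70, 7.73 and 7.94 in those of the wild-type leukaemias, against 6.99, 7.70 and 7.20 (labelled knock-in) and 7.74, 7.73 and 7.41 (wild type) in the c-kit-negative cells. Kdm1a gave log2 values of 6.92, 6.58 and 6.69 (labelled knock-in) and 6.72, 6.83 and 7.07 (wild type) in c-kit-positive cells, against 6.77, 6.47 and 6.69 (labelled knock-in) and 6.48, 6.67 and 6.71 (wild type) in c-kit-negative cells. Kdm6a, the related demethylase of the X chromosome, differed by 0.17 and Kdm1a, a demethylase of another lysine of histone H3, by 0.17, and neither passed. The c-kit difference of Kdm6b was below that of Kdm6a by -0.72 ± 0.29 (SD) in 6 of 6 leukaemias (exact p = 0.03125, adjusted 0.0391). Since Kdm6b passed and Kdm6a did not, that p-value is no separate support for the call.

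Marker lists moved with the fractions in the same comparison. All 19 tested mitosis genes were higher in c-kit-positive cells (median difference 0.97), as were 10 of 18 S phase genes (median 0.57) and 8 of 8 genes of the primary granule list (median 1.53). Lower there were 9 of 16 late neutrophil genes (median -0.73), 8 of 12 monocyte genes (median -0.75) and 1 of 7 B cell genes. The mean S phase signal was 7.24 to 7.68 on c-kit-positive arrays and 6.49 to 7.32 on c-kit-negative arrays, and the mean mitosis signal was 8.06 to 8.44 on c-kit-positive and 6.73 to 7.85 on c-kit-negative arrays. Leukaemia 85 had the lowest c-kit-negative value of both lists, and of Suz12, Ezh2, Rbbp7 and Rbbp4. The part of cycling cells or of maturation in the differences of the chromatin genes was not tested.

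**Figure D3:**
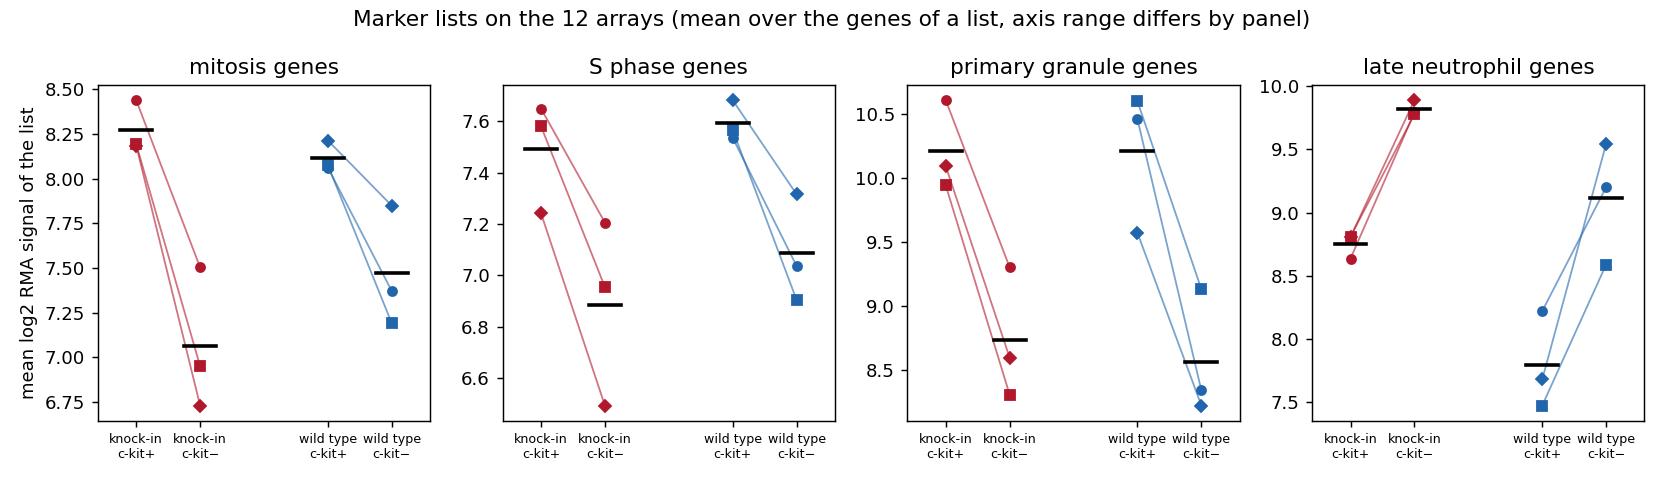
Mean log2 signal of the mitosis, S phase, primary granule and late neutrophil genes on the 12 arrays (points), with group means (black bars) and lines joining both fractions of a leukaemia; groups run from labelled knock-in (red) to wild type (blue), and axis ranges differ. Mitosis, S phase and primary granule signals are lower in the c-kit-negative cells of all 6 leukaemias, and late neutrophil signals are higher there.

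Within a label, 3 arrays stood against 3. In the labelled knock-in leukaemias 1 member, Suz12, passed (1.03, a 2.04-fold higher signal, adjusted p = 0.0315), beside 1.88% of all tested genes. Its call ended under 7 of 15 alternatives. These were without leukaemia 73, 75, 83 or 85, without the c-kit-negative array of 85 alone, after median centring and on its arrays alone. Leukaemias 73 and 75 are wild type and entered this difference only through the spread shared over all groups. With the leukaemia as a block 11 members passed in the labelled knock-in leukaemias, 10 higher and 1 lower, beside 8.70% of all genes. In the wild-type leukaemias 0 members passed, beside 0.768% of genes, while 16 had an unadjusted p under 0.05, as 16.2% of all genes did. With the block 12 passed, 11 higher and 1 lower, beside 11.0% of all genes. The wild-type fractions did not overlap for 20 members, 18 higher and 2 lower (14.5% and 13.2% of all genes), and the labelled knock-in fractions for 10, 9 higher and 1 lower (7.24% and 6.38%).

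The genotype comparison asked whether the Dnmt3b label went with another level of these genes. No member differed past the threshold between the labelled knock-in and the wild-type leukaemias in c-kit-positive cells, in c-kit-negative cells or over both. In limma 0.141%, 0.0627% and 0.0261% of all tested genes passed there, and with the leukaemia as a block 0 members and 0.12%, 0.0627% and 0.178% of genes. At an unadjusted p under 0.05, 7, 5 and 5 members differed, where 9.89%, 6.10% and 8.37% of all tested genes did. Over both fractions the median difference was -0.06 over the members and 0.01 over all tested genes.

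Mtf2 and Rnf2 had the smallest p among the members over both fractions, and neither passed. Mtf2 averaged 6.64, 6.61 and 6.42 over both fractions in the labelled knock-in leukaemias, against 6.95, 6.83 and 7.08 in the wild-type leukaemias, without overlap. The difference was -0.40 (95% interval -0.63 to -0.16, adjusted p = 0.330 in limma). Rnf2 averaged 6.93, 6.80 and 6.84 under the knock-in label and 7.11, 7.24 and 7.29 under the wild-type label, again without overlap, a difference of -0.36 (-0.56 to -0.16, adjusted p = 0.330). Both gaps were larger in c-kit-positive cells, -0.53 for Mtf2 and -0.44 for Rnf2, than in c-kit-negative cells, -0.27 and -0.27, and the change of the gap between fractions did not pass (interaction adjusted p = 0.99995 for each).

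In the other direction, Phc1 averaged 6.05, 6.13 and 6.17 in the labelled knock-in leukaemias and 5.84, 5.86 and 5.84 in the wild-type leukaemias, without overlap in either fraction. The difference was 0.27 (0.09 to 0.45, adjusted p = 0.385). Rbbp7 averaged 8.02, 7.85 and 7.44 under the knock-in label and 8.12, 8.12 and 8.35 under the wild-type label. Its difference was -0.43 (-0.77 to -0.09, adjusted p = 0.475), and -0.19 with the c-kit-negative array of 85 left out. Leukaemia 85 then entered as its c-kit-positive value alone (8.16), so the balance of fractions changed as well. The part of each in the smaller difference was not tested. Suz12 differed by -0.33 (-0.74 to 0.09) and Ezh2 by -0.10 (-0.60 to 0.40), with overlapping labels.

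Kdm6a averaged 7.12, 7.64 and 7.38 in the labelled knock-in leukaemias and 7.72, 7.73 and 7.68 in the wild-type leukaemias, a difference of -0.33 (-0.62 to -0.03, adjusted p = 0.536). Leukaemia 81 was the lowest, and it was also the leukaemia low in Xist, which coats the silenced X in female cells, at 6.29 against 10.4 to 11.3 in the other 5. Kdm6a is known to escape that inactivation in mice. Without leukaemia 81 the difference was -0.20, and the part of sex in it was not tested. Rybp, a subunit of variant PRC1 singled out after its values were seen, averaged 8.41, 7.87 and 7.30 under the knock-in label, against 7.43, 7.49 and 7.27 under the wild-type label. Its difference of 0.46 (-0.08 to 1.003, adjusted p = 0.686) did not pass, with leukaemia 81 the highest and leukaemia 85 among the wild-type values.

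**Figure D4:**
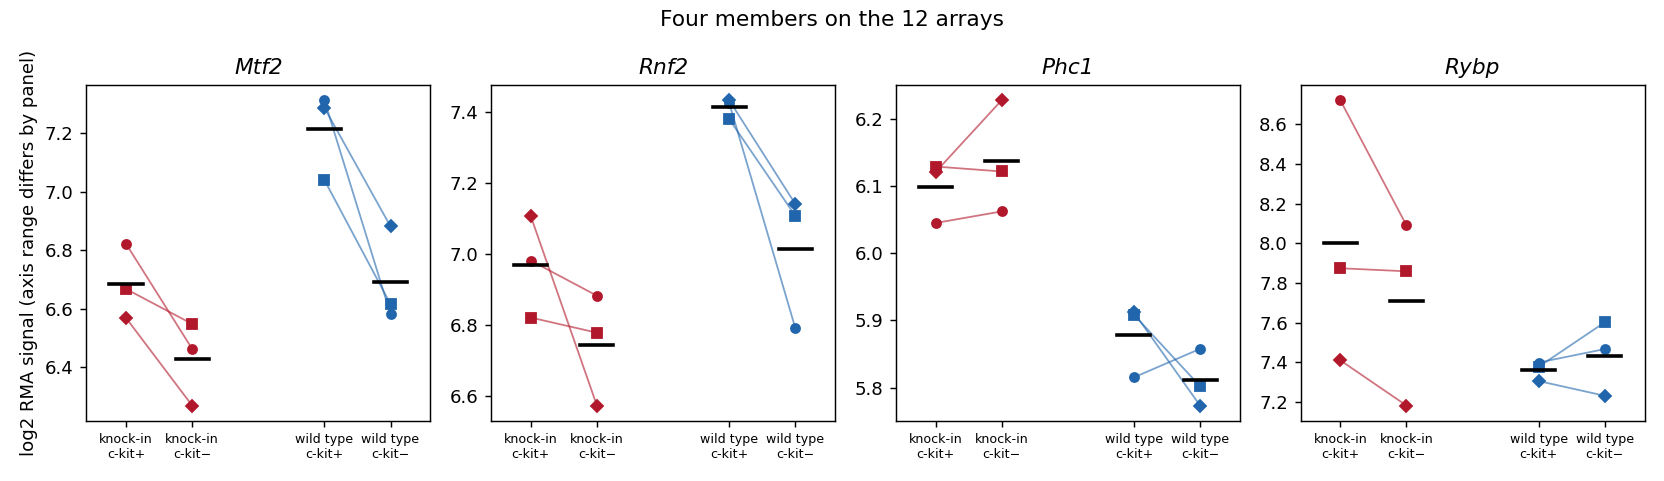
Log2 signal of Mtf2, Rnf2, Phc1 and Rybp on the 12 arrays (points) with group means (black bars) and lines joining both fractions of a leukaemia; labelled knock-in in red left of wild type in blue, and axis ranges differ. Phc1 lies above 6.0 on every labelled knock-in array and below it on every wild-type array, and Rybp reaches 8.72 in leukaemia 81.

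Jarid2, Wdr5, Men1 and Mllt3 did not pass either. Their differences between labelled knock-in and wild type were -0.29 (-0.67 to 0.09), -0.30 (-0.62 to 0.03), 0.15 (-0.09 to 0.39) and 0.08 (-0.14 to 0.30). Jarid2 averaged 8.23, 8.10 and 7.60 in the labelled knock-in leukaemias and 8.12, 8.45 and 8.22 in the wild-type leukaemias. Wdr5 averaged 7.05, 7.19 and 6.73 under the knock-in label and 7.09, 7.29 and 7.48 under the wild-type label, with leukaemia 85 the lowest of both genes, and without it the differences were -0.10 for Jarid2 and -0.17 for Wdr5. Mllt10 differed by -0.21 (-0.44 to 0.03). The labels did not overlap for 2 members higher and 5 lower in the labelled knock-in leukaemias, beside 5.52% and 7.45% of all tested genes. The intervals of all 41 members lay within -0.77 and 1.003.

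**Figure D5:**
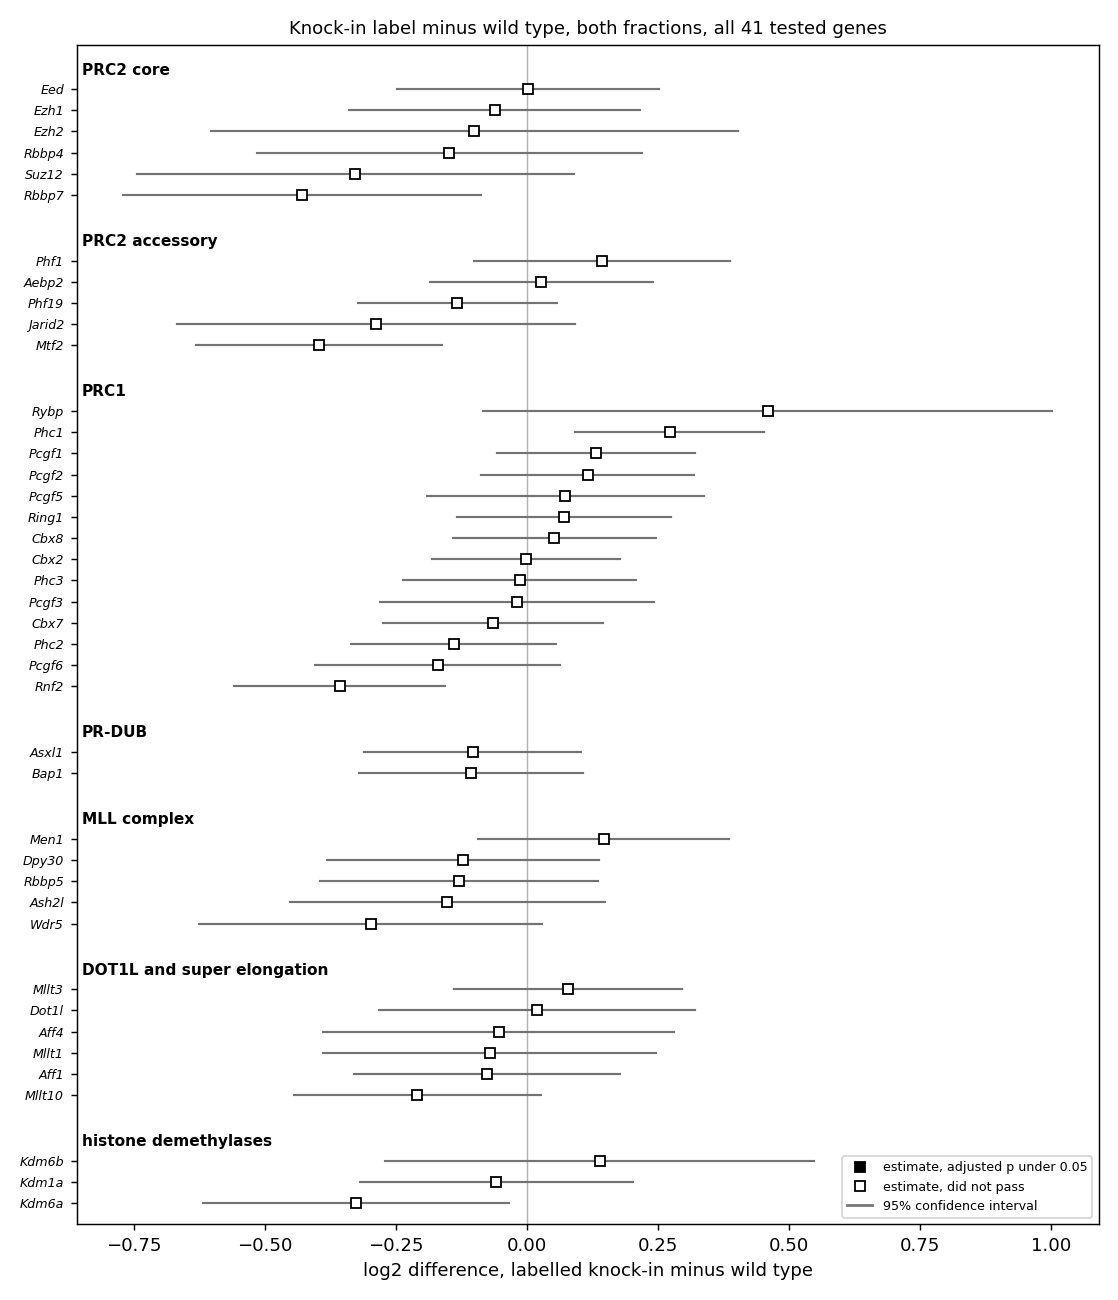
Log2 difference of labelled knock-in minus wild type over both fractions for the 41 tested genes by complex, with 95% confidence intervals of single genes (lines). No square is filled, since no member had an adjusted p under 0.05; the estimates span -0.43 (Rbbp7) to 0.46 (Rybp).

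Of 16 late neutrophil genes, 2 passed between the labels over both fractions, both higher under the knock-in label, with 14 positive and 2 negative estimates (median 0.71). The mean signal of the list was 8.64 to 8.81 in the c-kit-positive cells of the labelled knock-in leukaemias, against 7.47 to 8.22 in those of the wild-type leukaemias. In c-kit-negative cells it was 9.78 to 9.89 under the knock-in label and 8.59 to 9.55 under the wild-type label. Over both fractions 0 mitosis, S phase, primary granule, monocyte, B cell, T and NK cell, erythroid or stromal genes passed. Within fractions, all 19 mitosis genes were lower under the knock-in label in c-kit-negative cells (median -0.39). There 8 had an unadjusted p under 0.05 in limma, beside 6.1% of all tested genes, and 0 passed. In c-kit-positive cells 16 were higher and 3 lower (median 0.12), and 0 passed. The c-kit difference of all 19 was larger under the knock-in label (median change 0.56). Of these changes 7 had an unadjusted p under 0.05 in limma, beside 2.23% of all tested genes, and 0 passed. The part of a different share of mature cells in the gaps of Mtf2, Rnf2 and Phc1 was not tested.

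Whether the c-kit difference itself changed with the label was asked by the interaction. It passed for 0 members and for 0.0% of all tested genes, in the limma fit with the block and without it. At an unadjusted p under 0.05 it held for 1 member, Bap1, where 2.23% of all genes did. The c-kit difference of Bap1 was 0.05 in the labelled knock-in leukaemias and 0.45 in the wild-type leukaemias, a change of -0.40 (-0.75 to -0.05, adjusted p = 0.99995). For Suz12 the change was 0.36 (-0.31 to 1.03) and for Ezh2 0.20 (-0.59 to 0.98), both of which hold 0. Pcgf1, singled out after its values were seen, was higher in c-kit-positive cells of all 3 labelled knock-in leukaemias and lower in those of all 3 wild-type leukaemias, as 1.71% of tested genes were in one or the other order of labels (interaction 0.30, -0.01 to 0.61, adjusted p = 0.99995).

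Other genes of these pathways were read from lists beside the members. Of 26 tested further Polycomb genes, 5 were higher in c-kit-positive cells: Sfmbt1 (0.56, adjusted p = 0.000952), Tfdp1 (0.83), the E2F partner found in a variant PRC1, Hdac2 (0.74), a histone deacetylase, L3mbtl2 (0.29) and Yaf2 (0.40), the paralogue of Rybp; L3mbtl2 and Yaf2 are named after their values were seen. Of 18 further trithorax and MLL genes, Setd1a (0.38), Paxip1 (0.47) and Hcfc1 (0.49) were higher. Larp7 (0.47), which holds the elongation factor P-TEFb inactive, was the 1 of 17 further elongation genes that was higher. Of 19 SWI/SNF remodelling genes, Smarcc1 (0.61) and Smarca2 (0.26) were higher. Of all tested genes 5.84% were higher, close to the share of the elongation list. In the blocked fit 9, 4, 3 and 12 genes of the lists were higher and 1, 0, 1 and 0 lower, beside 13.0% and 6.61% of all tested genes. None of these lists had a gene lower in the fit without the block, and their medians were 0.10, 0.18, 0.07 and 0.26, beside -0.03 over all tested genes.

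Between labelled knock-in and wild type, 0 genes of these 4 lists passed over both fractions. Those with the smallest p were Kdm5b (0.40, adjusted p = 0.270), a demethylase of the mark that MLL makes, Larp7 (-0.38), L3mbtl2 (-0.23), Smarcc1 (-0.35), Kdm5a (-0.21) and Arid1b (-0.36), and the adjusted p of the last 5 was 0.502 to 0.579.

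Across all 12 arrays, the median range from the lowest to the highest array was 0.74 for the tested members and 0.59 for all tested genes. Rbbp7 spanned 1.97, Suz12 1.89, Ezh2 1.68 and Rybp 1.54, and 1.57% to 3.96% of tested genes had a wider range than these. At the other end Phc2 spanned 0.35, and 90.1% of tested genes were wider. The wild-type c-kit-positive array of leukaemia 79 was the highest of the 12 for 13 members, and for 13.1% of all tested genes.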

How the data were processed

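RNA of 12 sorted samples was labelled with an Affymetrix whole-transcript kit and hybridised to 1 array each, per the labels. The deposited log2 values were made by the authors with RMA in Affymetrix Expression Console, per the submitters' processing notes; versions are not given in the sources used here. The number of arrays limits the precision. RMA brings the probe intensities of all arrays to one distribution before probe sets are summarised, so a shift of most genes could be hidden. The deposited probe set values were not on exactly one distribution. The median c-kit difference over all tested genes was -0.03 as deposited, 0.009 after median centring and -0.006 after quantile normalisation.

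The table held 41345 probe sets, of which 23521 were annotated to 1 symbol, 1814 to several and 16010 were not listed; 23328 matched RefSeq by Entrez ID. No column belonged to other samples (0). The probe set with the highest mean stood for a gene, and values above log2 4.61 on at least 3 arrays were required. Differences were fitted with limma 3.58.1 in R 4.3.3 on 4 group means over all tested genes, with the Benjamini-Hochberg adjustment and a threshold of 0.05; for the genotype over both fractions, each leukaemia entered once, as its mean. The fit was tested on simulated arrays drawn independently of each other, with an added difference larger than that of any member. That test covers neither the pairing of fractions nor differences of the size reported here. Alternatives were the leukaemia as a block (fixed, or random with statmod 1.5.0), other filters, quantile normalisation, median centring, the mean of all probe sets, a trended robust fit, the arrays of a comparison alone and leaving out each leukaemia. The block with leukaemias left out, and leaving out the c-kit-negative array of leukaemia 85, were added after seeing the data. Without that array, leukaemia 85 entered the genotype fit over both fractions as its c-kit-positive value alone. Leukaemia numbers from the titles pair the fractions: deviations from group means correlated at 0.279 to 0.601 within all 6.

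The members and lists were chosen with earlier results of these data known. Named were members past the threshold, in each complex up to 2 with the smallest p for c-kit and for genotype, those with the highest and lowest mean, and up to 3 genes of each further list and comparison. Differences between 4 pairs of related genes and between Suz12 and Eed were tested over leukaemias with an exact sign-flip permutation test. Every pair set a member that passed in the c-kit comparison against one that did not, so a small p there was likely beforehand. Promoters came from RefSeq on GRCm38.p6.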

Additional observations from a re-analysis of the deposited data

Results flagged for a closer look

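Pcgf1, the RING-finger partner of the variant PRC1 with BCOR, had c-kit differences of opposite sign under the labels. Its c-kit-positive minus c-kit-negative difference was 0.06, 0.09 and 0.37 in the labelled knock-in leukaemias, against -0.28, -0.01 and -0.10 in the wild-type leukaemias. The change between labels was 0.30 (95% interval -0.01 to 0.61) and did not pass in limma (adjusted p = 0.99995). Of all tested genes, 1.71% had all leukaemias of one label up and all of the other down.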

How the results depend on the processing

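Over both labels 14 members passed in the c-kit comparison, and 11 to 15 did under the other filters, normalisations, probe set means and trended fit, against 20 with the leukaemia as a block. Leaving out 1 leukaemia gave 1 to 19 members: without the block 1 (without 75) to 15 (without 81), with it 15 to 19. When the c-kit-negative array of 85 was left out the count was 9. In the labelled knock-in leukaemias, where 1 passed, the block gave 11, the stricter filter 2, quantile normalisation 3, median centring 0, its arrays alone 0, and leaving out a leukaemia 0 to 3. In the wild-type leukaemias, where 0 passed, the block gave 12, its arrays alone 6, leaving out a leukaemia 0 to 4, and leaving out the c-kit-negative array of 85 gave 2. Counts for genotype and interaction were 0 under every alternative run. Kdm6b between labels was 0.14, and -0.011 without leukaemia 83 and 0.34 without 85. The cause of these changes was not tested, beyond the smaller number of arrays where some were left out.

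Over all tested genes, the c-kit comparison called 1580 genes over both labels, 3758 with the block and 503 to 2087 with a leukaemia left out. Within the labelled knock-in leukaemias it called 360, with the block 1666, by quantile normalisation 543, on its arrays alone 145 and with a leukaemia left out 58 to 367. Within the wild-type leukaemias it called 147, with the block 2109, after centring 69, on its arrays alone 898, with a leukaemia left out 1 to 662 and without that single array 438. Between labels 27 passed in c-kit-positive cells (17 with probe set means, 64 on its arrays alone, 0 to 123 with a leukaemia left out, 49 without the array), 12 in c-kit-negative cells (1 alone, 3 to 83, 23) and 5 over both (34 with the block, 2 after centring, 9 in the trended fit, 2 to 115, 2). The interaction called 0, and 1 without leukaemia 85 or its c-kit-negative array. Bmi1 and Psip1 read below the filter on every array, and neither passed in the c-kit comparison over both labels when no filter was used.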
